A study of Mus musculus with 6 samples.

Results

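The cytosolic ribosomal protein genes were examined in hepatic stellate cells, liver pericytes that store vitamin A and turn into collagen-making myofibroblasts after injury. Members were taken by symbol: every gene whose array symbol starts with Rpl or Rps followed by a digit, without the Rps6k kinases, plus Rplp0, Rplp1, Rplp2 and Rpsa. This gave 58 genes on 61 probes, of 16446 named genes on the array. The arrays were 3 of wild type mice and 3 of SEPT4-KO mice, which lack the septin gene Sept4. All 6 samples were hepatic stellate cells of mice with liver cirrhosis induced by CCl4, a hepatotoxin, so both genotypes carry the injury. The labels give no age, sex or strain. Their labelling protocol speaks of RNA from each mouse but describes tumour tissue, so it is not settled that each array is a separate mouse, and p-values measure the spread between these arrays, which may be technical. Sept4 itself was not analysed here, and the genotype labels were therefore not checked by the deleted gene.

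The eukaryotic ribosome has a small subunit, which binds the messenger RNA and reads its codons, and a large subunit, which joins the amino acids and passes the new chain out through an exit tunnel. Most of its proteins are present once in each particle and are built into the particles in the nucleolus. Their messenger RNAs usually start with a run of pyrimidines at the 5′ end, through which the mTOR kinase and the protein Larp1 set how well they are translated. Some have roles outside the ribosome: free Rpl5 and Rpl11 bind Mdm2, the ligase that degrades p53. Myofibroblasts formed from stellate cells make and secrete large amounts of matrix protein.

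Ribosomal protein genes differed between the genotypes in both directions, by less than 2-fold for every gene that passed. All values are normalised log2 signals, and a difference is knockout minus wild type, fitted with limma over 23473 probes. A gene passed at a Benjamini-Hochberg adjusted p under 0.05 over all probes. Of the 58 genes, 27 rose in the knockout, 12 fell and 19 did not pass. Of all probes, 42.7% passed, 26.7% as higher and 16% as lower. The 3 knockout values lay wholly above the wild type values in 31 members and wholly below in 15, against 34.5% and 21.7% of all probes, or 56.2% in either direction. The rises ran from 0.20 to 0.96 and the falls from -0.89 to -0.23, and the median difference of the 58 genes was 0.22, beside 0.12 for all probes. At least a 1.5-fold difference was reached by 13 of the rises and 2 of the falls. The share of all probes that reached it was not counted. Among all probes with a mean signal of 14 or more, the upper quartile of the differences was 0.61, so rises of this size were common at that signal. Without wild type replicate 3, 24 rose and 11 fell.

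**Figure D1:**
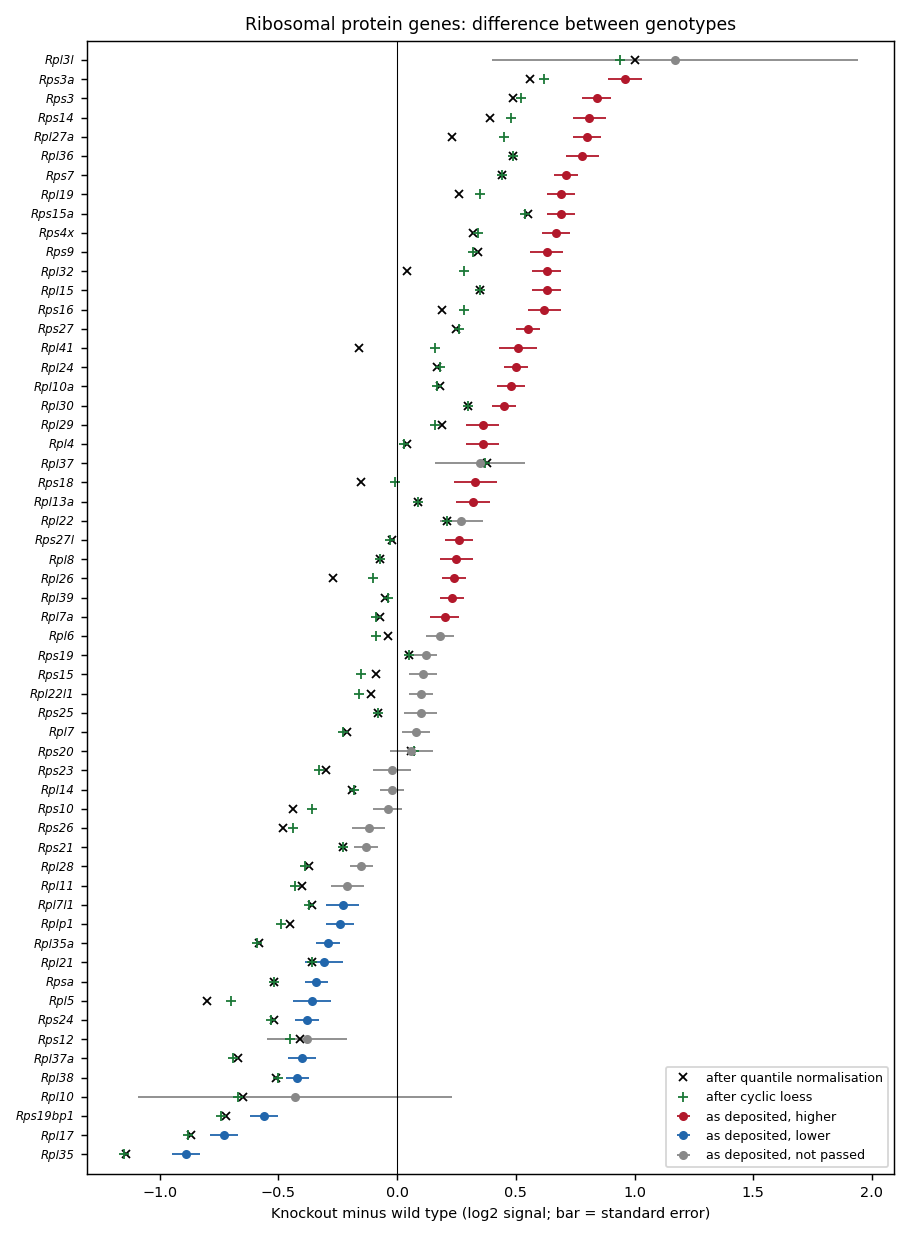
Difference between knockout and wild type in log2 signal for each of the 58 genes, with the standard error as a bar and the colour showing the call; crosses and plus signs give the same difference after quantile normalisation and cyclic loess. Rps3a at 0.96 and Rpl35 at -0.89 are the largest differences that passed, and both rescalings move most genes to the left.

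The direction of the group as a whole rested on how the arrays were scaled. Ribosomal protein probes were among the brightest, with 29 of the 58 genes within the brightest 235 probes. In these files bright probes as a class read higher in the knockout. The median difference of all probes was 0.42 where the mean signal was 14 or more, and 0.24 between 12 and 14. Among all 156 probes at 14 or more, 72.4% passed as higher and 7.05% as lower. The 25 members there stood at 19 higher and 2 lower, or 76% and 8%, with a median of 0.50, so their share was near that of other bright probes. Between 12 and 14, 4 of 11 members rose and 3 fell, against 56.5% and 15.7% of all probes. Between 10 and 12, 2 of 7 rose and 2 fell, against 53.3% and 17.6%. Between 8 and 10, 2 of 5 rose and 3 fell, against 47.2% and 22.1%, and between 6 and 8, 0 of 5 rose and 2 fell, against 40.1% and 24.3%. The medians of the members were 0.11, -0.02, -0.23 and -0.13 in these 4 steps from the brightest down, beside 0.24, 0.22, 0.15 and 0.11 for all probes. The share of members higher or lower in a step was not tested against the other probes. After quantile normalisation of the deposited values, 17 of the 58 genes were higher and 21 lower, with a median of -0.07, beside 22.3% and 20.2% of all probes and a median of 0.02. In the brightest step 12 of 25 members were then higher and 7 lower, beside 35.3% and 26.3% of all probes, and between 12 and 14, 2 of 11 and 4, beside 37.1% and 33.6%. Cyclic loess, which scales by brightness without forcing the top values to be equal, gave 16 higher and 22 lower and a median of -0.05, beside 21.9% and 20.7% and a median of 0.01. Loess left 12 members higher and 6 lower in the brightest step, beside 42.9% and 23.7% of all probes, and 2 and 6 between 12 and 14, beside 35% and 37.6%. As a description, since all 58 points share the same 6 arrays, difference and mean signal had a Spearman correlation of 0.45 in the deposited values, 0.17 after the quantile step and 0.27 after loess.

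**Figure D2:**
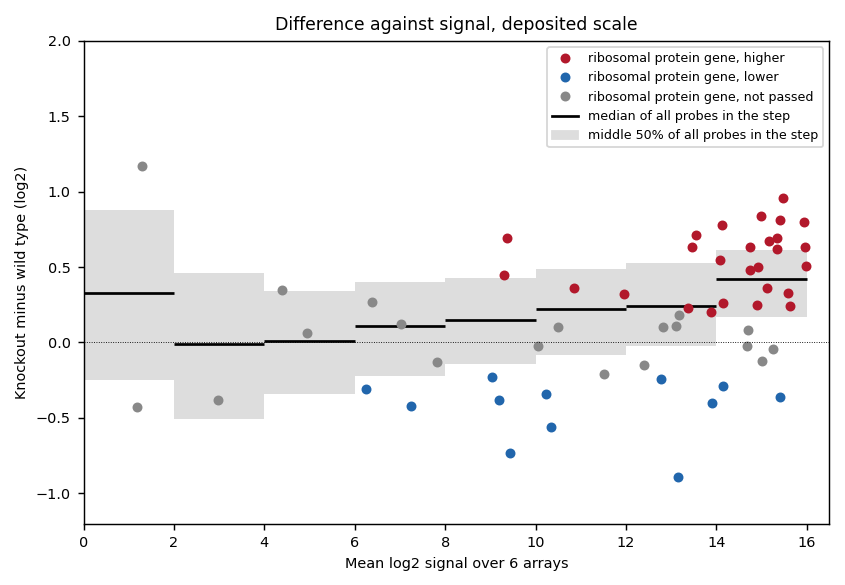
Difference between genotypes (log2) against the mean log2 signal over the 6 arrays; points are the 58 genes, black lines the median and grey bands the middle 50% of all probes in steps of 2 log2 units. The median of all probes climbs to 0.42 in the brightest step, where 19 of 25 ribosomal protein genes passed as higher.

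Individual genes kept their call under all 3 scalings in 27 cases, 15 of them higher and 12 lower. The share of all probes that kept a call under all 3 was not counted, so these numbers only list genes. The 15 were Rpl15, Rpl19, Rpl24, Rpl27a, Rpl30, Rpl36, Rps3, Rps3a, Rps4x, Rps7, Rps9, Rps14, Rps15a, Rps16 and Rps27. The 12 probes that fell as deposited also fell after both rescalings, where their differences were larger, from -1.14 to -0.36 after quantile normalisation. They stand for 12 genes by the brightest probe of each, and include Rpl5, whose other probe rose. Both rescalings lowered the median difference of all probes in every signal step that held these 12 probes. At a mean signal of 14 or more it went from 0.42 to 0.04 after quantile normalisation and to 0.08 after loess. Rescaling thus favoured keeping falls over keeping rises, so the 12 kept falls are no independent check on them. The other 12 of the 27 rises did not pass as higher in at least 1 rescaling. One of these, Rpl26, passed as lower after quantile normalisation, at -0.27.

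Small-subunit proteins gave the largest rises. Rps3a, a protein of the platform that lies close to where messenger RNA leaves the ribosome, read 15.09, 15.02 and 14.88 in wild type arrays and 15.99, 15.92 and 15.95 in knockout arrays. Every knockout value was above every wild type value. The difference was 0.96 ± 0.07 (SE), or 1.94-fold (limma, adjusted p = 0.000763), and 0.56 after quantile normalisation. Rps3, which sits at the messenger RNA entry and also takes part in DNA repair, read 14.63, 14.57 and 14.50 in wild type and 15.44, 15.38 and 15.41 in the knockout. The groups were again apart, by 0.84 ± 0.06 (SE) as deposited and 0.49 after quantile normalisation. Rps14, the gene whose loss underlies the anaemia of the human 5q deletion, read 15.08, 15.04 and 14.89 against 15.83, 15.78 and 15.84, a difference of 0.81 ± 0.07 (SE) and of 0.39 after quantile normalisation.

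Rps7, an Mdm2-binding protein, read 13.23, 13.20 and 13.11 in wild type and 13.94, 13.86 and 13.88 in the knockout, a difference of 0.71. Rps15a lay well below the brightest probes, with 9.02, 9.08 and 8.95 against 9.78, 9.71 and 9.64. Its difference of 0.69 was reduced less by scaling than that of the brighter genes, to 0.55 after quantile normalisation and 0.54 after loess. Rps4x, the X-linked form of its protein, rose by 0.67 and Rps9, a messenger RNA entry protein, by 0.63. Rps16 rose by 0.62 and Rps27 by 0.55.

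Among large-subunit genes the largest rise was that of Rpl27a, at 15.58, 15.57 and 15.46 in wild type and 16.29, 16.35 and 16.36 in the knockout. The deposited values gave 0.80 ± 0.06 (SE), quantile normalisation 0.23 and loess 0.45. This probe is among the brightest on the array, where quantile normalisation sets the highest values equal across arrays. Rpl36 read 13.80, 13.77 and 13.60 against 14.45, 14.52 and 14.55 and rose by 0.78, or by 0.49 after either rescaling. Rpl19, which reaches across to the small subunit as a bridge, rose by 0.69, Rpl15 by 0.63 and Rpl32 by 0.63. For Rpl32 quantile normalisation left 0.04 (limma, adjusted p = 0.529) and loess 0.28 (adjusted p = 0.00352). The 12 largest rises of all members had adjusted p-values of 0.000641 to 0.0022.

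The largest fall was that of Rpl35, a protein at the rim of the exit tunnel where the signal recognition particle docks. Its wild type arrays read 13.65, 13.65 and 13.50 and its knockout arrays 12.69, 12.73 and 12.72. The difference was -0.89 ± 0.06 (SE), a 1.85-fold fall (limma, adjusted p = 0.000697), and -1.14 after quantile normalisation. Rpl35 thus fell at a signal where the median difference of all probes was 0.24. Rpl17, which lines the exit tunnel, read 9.77, 9.87 and 9.78 in wild type and 9.02, 9.08 and 9.14 in the knockout, a difference of -0.73 ± 0.06 (SE).

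Rps19bp1 matches the symbol rule but encodes a binding protein of Rps19, not a ribosomal protein. It read 10.62, 10.65 and 10.61 against 10, 10.04 and 10.14 and differed by -0.56. Rpl38, which in mouse embryos is needed to translate certain Hox messenger RNAs, read 7.49, 7.46 and 7.43 against 7, 7.11 and 7.03 and fell by 0.42. Rps24, a gene mutated in Diamond-Blackfan anaemia, fell by 0.38, Rpl21 by 0.31 and Rpl35a by 0.29. Rpsa, the laminin receptor precursor that is also a small-subunit protein, read 10.48, 10.38 and 10.35 against 10.07, 10.07 and 10.04 and fell by 0.34. The 12 falls had adjusted p-values of 0.000697 to 0.0417. The call of Rpl21 was lost when wild type replicate 1 or 2 or knockout replicate 2 or 3 was left out, with adjusted p-values of 0.0786 to 0.0873.

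**Figure D3:**
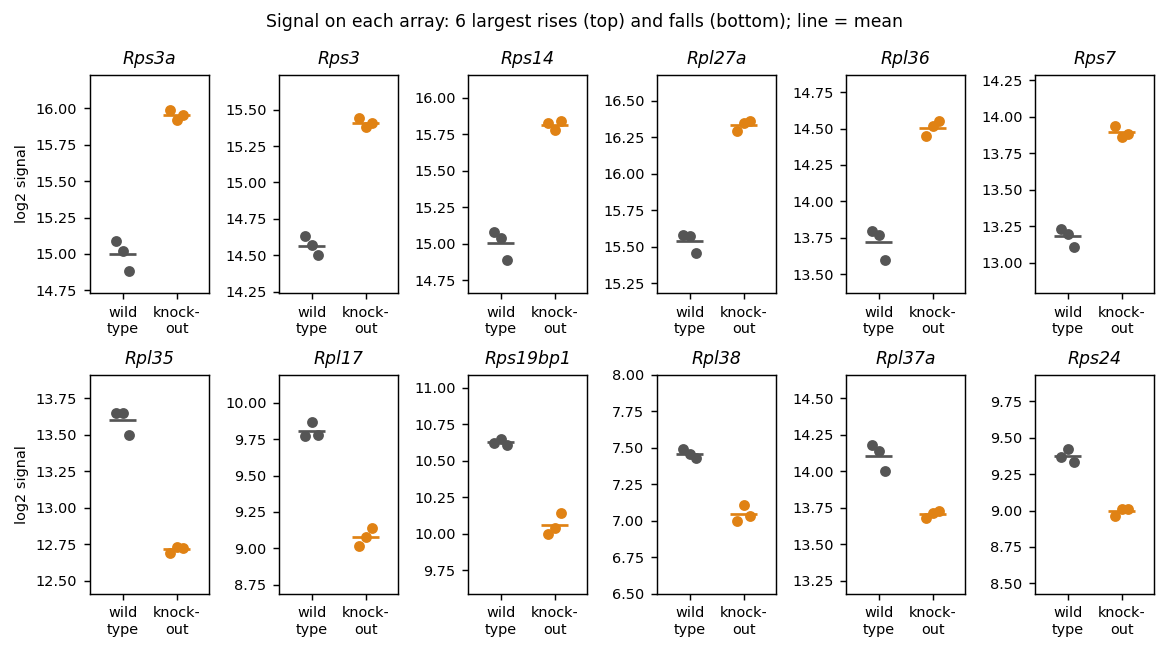
Log2 signal on each array for the 6 largest rises (top) and the 6 largest falls (bottom), wild type left and knockout right, with the mean as a line; every panel spans the same 1.5 log2 units. In all 12 genes the 3 values of the genotypes do not overlap, which was a condition of their choice. In Rps3a the wild type values of 14.88 to 15.09 lie below knockout values of 15.92 to 15.99.

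The bases around the start of 4 core genes that rose and 4 that fell are printed to show whether the pyrimidine run that marks ribosomal protein messengers is found on both sides. These were the largest differences among core genes that passed and had an entry in the RefSeq promoter table (GRCm38.p6), which held 47 of the 58 genes. Genes of 1 chromosome were also left out of this choice, whether or not they had an entry. The larger differences of Rps14, Rpl36 and Rpl17 are therefore not printed. Each runs from 50 bases before to 30 bases after the listed start, and capitals mark a C followed by at least 5 pyrimidines. The rises are Rps3a (listed as Rps3a1, chr3:86142639-86142718, minus strand), Rps3 (chr7:99483680-99483759, minus), Rpl27a (chr7:109519145-109519224, plus) and Rps7 (chr12:28635924-28636003, minus). The falls are Rpl35 (chr2:39005102-39005181, minus), Rpl38 (chr11:114668530-114668609, plus), Rpl37a (chr1:72711210-72711289, plus) and Rps24 (chr14:24490628-24490707, plus).
Rps3a: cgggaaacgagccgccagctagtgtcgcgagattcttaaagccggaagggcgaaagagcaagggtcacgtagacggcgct
Rps3: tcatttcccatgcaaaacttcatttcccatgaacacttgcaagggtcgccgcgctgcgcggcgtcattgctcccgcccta
Rpl27a: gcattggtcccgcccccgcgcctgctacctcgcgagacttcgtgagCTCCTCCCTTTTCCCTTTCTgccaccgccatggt
Rps7: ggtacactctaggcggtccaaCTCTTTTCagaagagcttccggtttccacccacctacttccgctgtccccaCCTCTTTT
Rpl35: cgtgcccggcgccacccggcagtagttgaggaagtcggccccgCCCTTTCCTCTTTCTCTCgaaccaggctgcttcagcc
Rpl38: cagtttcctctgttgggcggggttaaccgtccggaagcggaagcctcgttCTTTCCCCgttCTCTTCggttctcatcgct
Rpl37a: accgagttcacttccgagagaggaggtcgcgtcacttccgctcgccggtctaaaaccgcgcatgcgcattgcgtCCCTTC
Rps24: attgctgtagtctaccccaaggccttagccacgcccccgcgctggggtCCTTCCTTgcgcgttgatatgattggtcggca
Counting the start as base 1, with no base 0, a run began at base -4 in Rpl27a, which rose. Among the falls it began at -7 in Rpl35, 1 in Rpl38 and -2 in Rps24. Rps3a and Rps3 had none in the printed bases, and in Rps7 and Rpl37a the nearest began at base 23 and base 25 after the start. A listed start can lie upstream of the one used in these cells, so an absent run says only that these letters are not in this window. Over all windows of members a run began within 5 bases of the start in 29.2% for genes that rose, 25% for genes that fell and 27.3% for genes that did not pass, against 9.1% of all 32851 windows in the table.

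Further motifs were counted on both strands of the 300-base windows. The Ets-family core CCGGAAG was in 10 of 24 windows of genes that rose, 3 of 12 of genes that fell, 8 of 22 of genes that did not pass and 8.86% of all windows. The YY1 core AAGATGGC was in 3 of 24, 4 of 12 and 1 of 22, and in 2.75% of all windows. The Sp1 box GGGCGG was in 13 of 24, 8 of 12 and 11 of 22, and in 35.7% of all. These are letter matches and no measure of binding.

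The subunits were compared as counts. Of 21 measured core genes of the small subunit, 10 rose and 2 fell, and of 32 of the large subunit, 16 rose and 8 fell. Medians were 0.12 and 0.24. Of the 15 genes higher under all 3 scalings, 9 were of the small subunit, which had 21 members, and 6 of the large subunit. Of the 12 lower under all 3, 2 were core small-subunit genes and 8 belonged to the large subunit with its stalk. The shares of all probes that kept a call under all 3 were not counted. Restricted to genes with a mean signal of 12 or more, 9 of 13 small-subunit genes rose and 0 fell in limma (also 0 lower at an unadjusted p under 0.05), and 13 of 21 large-subunit genes rose and 5 fell. Of all probes at that signal 60.1% passed as higher and 13.7% as lower, so the shares that rose in both subunits were near that of any bright probe. In the same bright genes after quantile normalisation the small subunit stood at 8 higher and 3 lower with a median of 0.25, and the large subunit at 6 higher and 8 lower with a median of -0.07, beside 36.6% and 32% of all bright probes. After loess the counts were 8 and 4 for the small and 6 and 7 for the large subunit, beside 36.8% and 34.5%. The difference between the subunits was not tested. Among core genes with a signal under 12, 4 of 19 rose and 5 fell, against 25.7% and 16.1% of all probes there. Those probes include many dim ones, of which few passed. The median signal of the 19 genes was 9.18, and between 8 and 10, 47.2% of all probes passed as higher and 22.1% as lower.

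**Figure D4:**
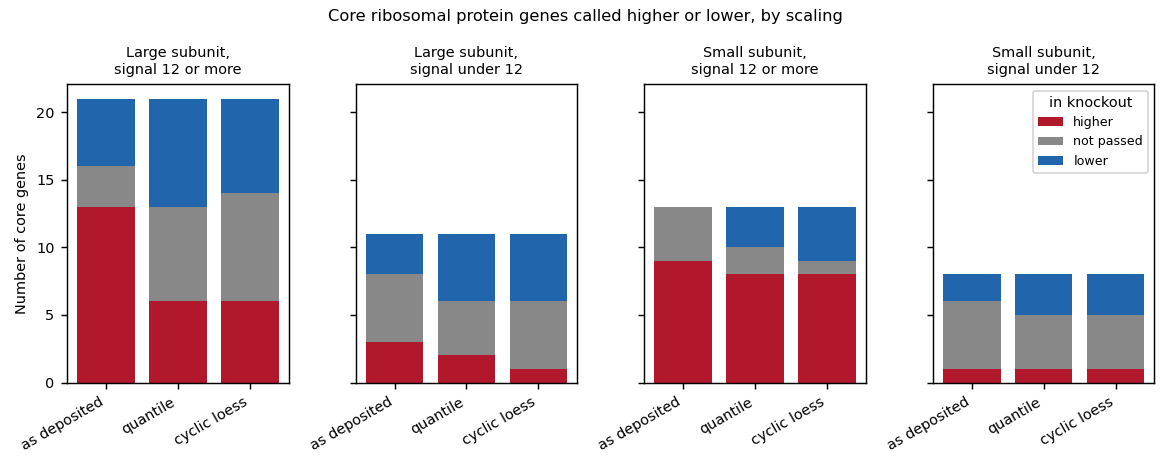
Number of core genes called higher (red), lower (blue) or not passed (grey) in the knockout, for large and small subunit split at a mean log2 signal of 12, under 3 scalings. Bright small-subunit genes go from 9 higher and 0 lower as deposited to 8 and 3 after quantile normalisation, and bright large-subunit genes from 13 and 5 to 6 and 8.

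Genes of the exit tunnel rim did not all move in the same direction. Of 5 measured proteins at the rim of the exit tunnel, Rpl35 and Rpl17 fell and Rpl19, Rpl26 and Rpl39 rose as deposited. Rpl26, which also binds p53 messenger RNA, differed by 0.24 and Rpl39, a small protein lining the tunnel, by 0.23. The call of Rpl26 was lost without any 1 of wild type replicates 1 and 3 and knockout replicates 2 and 3, with adjusted p-values of 0.0524 to 0.0593 in limma, and that of Rpl39 without knockout replicate 1 or 2, at 0.0575 and 0.0601. Both of these turned after quantile normalisation, to -0.27 and -0.05, and after loess, to -0.10 and -0.04. Of 9 measured proteins of the small-subunit head, 3 rose, 0 fell and the median was 0.11. Of the 12 small-subunit genes outside the head, 7 rose and 2 fell with a median of 0.59. Their median signals were 13.11 for the head and 14.38 for the rest. Of all probes 26.7% passed as higher and 16% as lower. Between 12 and 14 these shares were 56.5% and 15.7%, and at 14 or more 72.4% and 7.05%. The counts moved with the scaling: after quantile normalisation the head stood at 2 higher and 1 lower with a median of -0.08 and the rest at 7 and 5 with a median of 0.28, and after loess at 2 and 2, and 7 and 5. After quantile normalisation 37.1% and 33.6% of all probes passed between 12 and 14, and 35.3% and 26.3% at 14 or more. Head and rest were not tested against each other.

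Rplp1, a protein of the stalk that recruits elongation factors, read 12.88, 12.93 and 12.88 in wild type and 12.57, 12.65 and 12.75 in the knockout. It fell by 0.24 (limma, adjusted p = 0.0323), and lost the call without any 1 of wild type replicates 1, 2 and 3 or knockout replicates 1 and 2, at 0.0733 to 0.104. The brighter probe of Rpl5 read 15.60, 15.62 and 15.52 against 15.09, 15.22 and 15.34, a difference of -0.36. Its other probe read 12.55, 12.60 and 12.46 against 12.94, 12.99 and 13.04, a difference of 0.46. Both probes of Rpl5 passed, in opposite directions and under all 3 scalings, so no direction is given for the gene. Leaving out knockout replicate 2 or wild type replicate 1 or 2 ended the call of the brighter probe, at 0.0564, 0.0585 and 0.064. Rpl11, its partner in the particle that binds Mdm2, read 11.70, 11.63 and 11.51 against 11.37, 11.39 and 11.43. Its groups did not overlap, but its difference of -0.21 missed the threshold (limma, adjusted p = 0.0538). It passed as lower after quantile normalisation, at -0.40 (adjusted p = 0.00309), and after loess, at -0.43 (adjusted p = 0.00213). Without wild type replicate 3 the deposited values passed as well, at -0.27 (adjusted p = 0.0299).

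The 2 other genes with several probes also differed by probe. The brighter probe of Rpl37a fell by 0.40 and its dimmer one gave 0.01 (limma, adjusted p = 0.93). The brighter probe of Rpl26 rose by 0.24 and its dimmer one gave -0.15 (adjusted p = 0.126), which passed as lower at -0.43 after quantile normalisation. Ribosomal protein genes have many processed pseudogenes, and 42 of the 58 symbols have a pseudogene of the same name in the RefSeq gene table, up to 23 for Rps12. Probes cannot be taken to tell a gene from its copies, so each level may include them.

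Paralogs were read beside the core proteins they resemble. Rps27l, a p53-induced copy of Rps27, read 14.10, 14.02 and 13.93 against 14.28, 14.29 and 14.27, a difference of 0.26 that passed at 0.0202 in limma. Rps27 itself read 13.86, 13.81 and 13.73 against 14.36, 14.33 and 14.36 and rose by 0.55. After quantile normalisation Rps27 differed by 0.25 and Rps27l by -0.02. The call of Rps27l also ended without any 1 of wild type replicate 2 and knockout replicates 1, 2 and 3, at 0.0535 to 0.0666. Rpl22l1, whose messenger RNA is repressed by Rpl22 protein, differed by 0.10 and Rpl22 by 0.27. Neither passed. The groups of Rpl22l1 overlapped, and those of Rpl22 did not, at 6.38, 6.21 and 6.16 against 6.46, 6.63 and 6.45. Without wild type replicate 1 Rpl22 passed, at 0.33 (limma, adjusted p = 0.0463). Rpl7l1 fell by 0.23 (limma, adjusted p = 0.0417), and the call was lost without any 1 of 5 arrays, all but knockout replicate 3, at 0.0614 to 0.125. Rpl7, its core counterpart, gave 0.08 (adjusted p = 0.346), and passed as lower at -0.21 after quantile normalisation. Rpl3l, a muscle form of Rpl3, was near the floor, at 0, 1.88 and 0.22 against 2.67, 2.32 and 0.62, and its difference of 1.17 ± 0.77 (SE) did not pass.

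Of the 19 genes that did not pass, 14 had a mean signal of 6 or more and differed by -0.21 to 0.27, with standard errors of at most 0.09. Rps10, Rps23 and Rpl14 were closest to no difference, at -0.04, -0.02 and -0.02 as deposited. After quantile normalisation these 3 passed as lower, at -0.44, -0.30 and -0.19. The other 5, Rpl10, Rps12, Rpl37, Rps20 and Rpl3l, had mean signals of 1.19 to 4.95 and standard errors of 0.09 to 0.77. In the steps below 4 few probes passed at all, 8.8% as higher and 3.94% as lower under 2, and 9.2% and 9.88% between 2 and 4.

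Wild type replicate 3 read lowest of its genotype in 50 of the 58 genes, with a median deviation of -0.071 from the wild type mean. Over all probes at a signal of 14 or more that array deviated by -0.078, so the shift was shared by bright probes. Knockout replicate 3 read highest of its genotype in 35 of the 58. The median member signal was 13.26, 13.25 and 13.15 on the wild type arrays and 13.60 on each knockout array. Array medians over all probes were all 5.018, and the highest value was 15.685 to 15.794 in wild type and 16.633 to 16.786 in knockout arrays. The processing of the arrays and the genotype cannot be told apart here.

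Other genes of translation also moved both ways. The counts of the lists that follow stand beside 26.7% higher and 16% lower for all probes as deposited, and 22.3% and 20.2% after quantile normalisation. These shares depend on signal. As deposited, 40.1% of all probes passed as higher and 24.3% as lower between 6 and 8. Between 8 and 10 they were 47.2% and 22.1%, and between 10 and 12, 53.3% and 17.6%. After quantile normalisation the shares were 34.2% and 30.3% between 6 and 8. They were then 37.3% and 32.8% between 8 and 10, and 39.9% and 33.6% between 10 and 12. Median signals were 11.18 for elongation and release factors, 10.56 for initiation factors and 9.1 for assembly factors. They were 7.47 for RNA polymerase I genes, 9.38 for mitochondrial ribosomal proteins and 9.58 for proliferation genes. Eef1a1, which delivers aminoacyl-tRNA and whose messenger has the same kind of pyrimidine start, rose from 15.73 ± 0.06 to 16.71 ± 0.08 (SD, n = 3), and by 0.22 after quantile normalisation and 0.62 after loess. Its values were the highest or level with the highest on every array. Rpl41 read 15.68, 15.79 and 15.71 in wild type arrays, as Eef1a1 did, and 16.13, 16.24 and 16.37 in knockout arrays. Whether signals near the top of the wild type arrays were limited by a ceiling was not tested. Eef2, which moves the ribosome along the messenger, read 13.45, 13.32 and 13.24 against 14.40, 14.42 and 14.42 and rose by 1.08, or 0.80 after quantile normalisation. Eef2k, the kinase that inhibits Eef2, fell from 6.14 ± 0.13 to 4.04 ± 0.25 (SD, n = 3), a difference of -2.10 as deposited and after quantile normalisation. Of 12 measured elongation and release factors 5 rose and 3 fell, and 2 and 4 after quantile normalisation. Abce1, which splits ribosomes after termination, fell by 0.38.

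Of 32 initiation factor genes, 14 rose and 5 fell, with a median of 0.11, and after quantile normalisation 12 rose and 13 fell. The scaffold gene Eif4g2 fell by 1.38 and Eif5, which activates GTP hydrolysis at the start codon, by 1.24. Pabpc1, the poly(A)-binding protein, rose by 0.84 and Eif3s3, a subunit of the factor that binds the small subunit, by 0.81. Of 47 ribosome assembly factors, 11 rose and 15 fell, with a median of -0.03, and after quantile normalisation 10 rose and 23 fell. Nola2, a protein of the RNA-guided pseudouridylation complex, fell by 0.74, the histone chaperone gene Npm3 by 0.70 and Pes1, of the large-subunit assembly complex, by 0.54, while the helicase gene Ddx18 rose by 0.53. Of 9 RNA polymerase I genes, 4 rose and 3 fell, and 3 and 3 after quantile normalisation: Rrn3, the initiation factor regulated by growth signals, rose by 0.71, Znrd1 by 0.68 and Ubtf by 0.49, and Twistnb fell by 0.42.

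Of 21 measured genes of the mTOR axis, 14 rose and 1 fell, with a median of 0.43. After quantile normalisation 14 rose and 2 fell with a median of 0.37. The median signal of these genes was 7.08, and of all probes between 6 and 8, 40.1% passed as higher and 24.3% as lower as deposited. After quantile normalisation these shares were 34.2% and 30.3%. The list was not tested against other genes. The mTOR inhibitor Akt1s1 rose by 0.92, the stress-induced inhibitor Sesn1 by 0.82, Rhebl1, a relative of the activator Rheb, by 0.66 and the ribosomal S6 kinase gene Rps6kb2 by 0.59. Activators and inhibitors of the kinase are thus both among those that rose. Larp1, named after its value was seen, rose by 0.54. Among 13 transcription regulators tied to ribosomal protein genes, 6 rose and 2 fell, and 4 and 3 after quantile normalisation. The growth factor-induced gene Myc fell by 1.69 and Yy1 by 0.65, while the Myc antagonist Mxd1 rose by 0.65 and Zbtb7a by 1.05.

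Mitochondrial ribosomal proteins, which form a separate ribosome, stood at 28 higher and 14 lower of 74, and at 17 and 25 after quantile normalisation. Mrpl3 rose by 0.96, Mrpl33 by 0.93 and Mrpl14 by 0.84, and Mrps21 fell by 0.85. Fau, which encodes a small-subunit protein fused to a ubiquitin-like one and lies outside the symbol rule, rose by 0.31, and differed by 0.03 after quantile normalisation. Of 13 genes of the Mdm2 and p53 response, 5 rose and 3 fell, and 5 and 4 after quantile normalisation, and those named by size were Fas at 1.05, Trp53inp1 at 0.89, Sesn1 at 0.82 and Ccng1 at 0.70. Of 19 proliferation genes, 11 rose and 0 fell in limma (1, Tyms at -0.17, was lower at an unadjusted p under 0.05), led by Pcna at 1.14 and Birc5 at 1.01, and after quantile normalisation 8 rose and 4 fell.

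**Figure D5:**
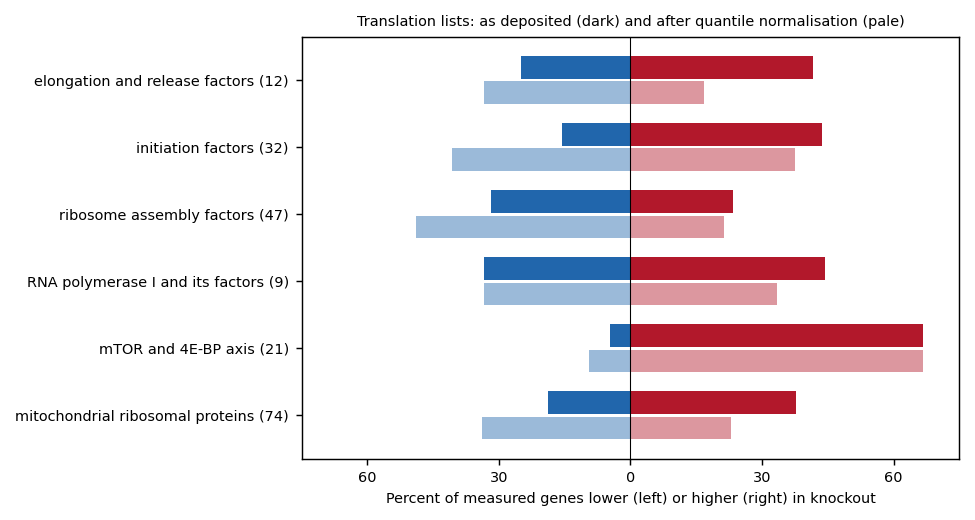
Percent of measured genes in 6 translation lists that passed as lower (left, blue) or higher (right, red) in the knockout, as deposited (dark) and after quantile normalisation (pale), with the number measured in brackets. The mTOR list has 14 of 21 genes higher under both scalings, whereas ribosome assembly factors go from 15 to 23 lower of 47.

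Among markers of stellate cells, Des read 6.83 in wild type and 6.42 in the knockout, Lrat 5.05 and 7.46, and Col3a1 12.13 and 14.22. Lrat in wild type was thus near the array median of 5.018, and Gfap was dim at 1.75 and 2.21. Des and Gfap were picked outside the naming rule, which gives Tagln, Lrat, Col3a1 and Cygb in order of size. The values of Tagln and Cygb are not given here. Of 20 stellate markers, 13 rose and 4 fell, and 11 and 4 after either rescaling. Their median signal was 10.74, and between 10 and 12, 53.3% of all probes passed as higher and 17.6% as lower as deposited. After quantile normalisation these shares were 39.9% and 33.6%, and after loess 39.2% and 34.7%. Markers of other cells also moved. Of 14 macrophage markers, 2 rose and 5 fell, with a log2 summed signal of 12.60 to 12.67 in wild type and 12.67 to 12.74 in knockout arrays. Of 13 hepatocyte markers, 4 rose and 1 fell, with sums of 11.40 to 11.45 and 11.61 to 11.67. Of 12 endothelial markers, 4 rose and 1 fell, with sums of 8.97 to 9.06 and 9.35 to 9.37. Of 6 bile duct markers, 0 rose in limma (1, Krt19 at 0.51, was higher at an unadjusted p under 0.05) and Spp1 fell by 1.26, with sums of 10.13 to 10.26 and 9.08 to 9.17. Spp1 was the only bile duct marker that passed. The median difference of the 6 was 0.20, the other way from their sum, and 0.22 after quantile normalisation. Of 12 lymphocyte and neutrophil markers, 2 rose and 3 fell, with sums of 7.97 to 8.05 and 7.87 to 8.09, and of 3 red cell markers 0 passed in limma and 0 had an unadjusted p under 0.05, with sums of 5.76 to 5.86 and 5.60 to 5.75. No marker was at the lowest value on all 6 arrays. The part of these cells in the ribosomal protein differences was not tested, and in bulk RNA fewer cells of a type and less RNA per cell cannot be told apart.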

How the data were processed

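The authors deposited 1 table of log2 signals for 6 single-colour arrays (Cy5), quantile normalised per the labels. Base 2 was inferred from their range, since no label gives it. The medians of the arrays were equal and their highest values were not. Upper quartiles were 7.697 to 7.734 in wild type and 7.815 to 7.838 in knockout arrays. The 99th percentiles were 13.271 to 13.389 and 13.59 to 13.647. The deposited values therefore do not have the same distribution on the 6 arrays, as quantile normalisation over them would give. Not given in the sources used here are the background correction and the scanner. The labelling protocol in the labels names a microRNA kit and tumour samples, against the stated design, and groups were taken from the sample titles, which match the genotype labels. No value column was left unused. Symbols come from the platform annotation (16631 of 23473 probes), and all 58 member symbols matched the RefSeq gene table on GRCm38.p6. A gene's value is its probe with the highest mean over 6 arrays.

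All probes entered 1 two-sided linear model (lmFit, then eBayes, limma 3.58.1, R 4.3.3) without further normalisation, with 4 residual and 1.11 prior degrees of freedom. The members and lists were chosen with earlier results of these data known. Named members were the 12 largest rises and falls that passed with groups apart, structural sets, paralogs with their partners and genes with several probes; each list gave up to 4 genes by size among those that passed, or the 3 smallest p. Alternatives covered scaling, dim probes, a linear offset, array weights, a trended and robust prior, a replicate block, single arrays left out, probe averaging, current symbols and an ordinary test per probe. On simulated data with 200 of 23473 probes changed, tested 10 times, 25.9% of changes of 0.5, 51.1% of 1 and 67.8% of 2 (log2) were recovered, and 5.36% of calls were false. The changed probes were drawn over all signals, and in the data 42.7% of probes passed. These recovery rates therefore do not give the power for the bright members. Figures were drawn with matplotlib 3.10.9. The number of arrays limits the precision.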

Additional observations from a re-analysis of the deposited data

How the results depend on the processing

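Scaling decided the balance of the group. The 27 higher and 12 lower genes became 17 and 21 after quantile normalisation and 16 and 22 after cyclic loess, and the median of 0.22 turned to -0.07 and -0.05. Of 33 genes chosen for description, those that turned sign, after quantile normalisation and loess in that order, were Rpl22l1 (-0.11 and -0.16), Rpl26 (-0.27 and -0.10), Rpl39 (-0.05 and -0.04), Rpl7 (-0.21 and -0.23) and Rps27l (-0.02 and -0.03). With the mean of a gene's probes Rpl5 differed by 0.05, Rpl26 by 0.04 (limma, adjusted p = 0.581), which ended its call, and Rpl37a by -0.20, which kept it. Leaving out each array in turn gave 20 to 26 higher, 8 to 11 lower and a median of 0.18 to 0.24. The other alternatives gave 18 to 30 higher and 8 to 16 lower, within 1.5 times of the deposited counts, and moved the median by less than 0.043, the SD between arrays of a genotype. Naming members by current symbol added 3 genes listed as clones, and 29 of 61 were then higher. Of these, 4930517K11Rik, now Rpl39l, rose by 0.77, 1110033J19Rik, now Rps4l, rose by 0.63 and 1100001I22Rik, now Rpl34, differed by -0.01, all looked at after their values were seen. The number of genes called in the other lists was 184 of 320 as deposited, and no alternative moved it by over 1.5 times. With the replicate number as a block, 18 were higher and 8 lower. Same-numbered arrays did not deviate together: the correlations of their deviations were 0.00775, -0.00135 and -0.00196, so they share only a number, and wild type replicate 2 correlated best with knockout replicate 3. Dim genes limit what could be seen: at a mean signal of 2 to 4, 9.2% of probes passed as higher and 9.88% as lower.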
